A study of Saccharomyces cerevisiae with 18 samples.

Results

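The introns of nuclear yeast genes that are at least 200 bases long were followed in Saccharomyces cerevisiae lacking factors of nonsense-mediated mRNA decay (NMD). Members were the intron features of both count tables off the mitochondrial chromosome whose pieces sum to that length, without 7 genes that the selection names. They number 115 of 343 intron features, among 12289 features in all. 83 lie in genes of ribosomal proteins (49 of the large and 34 of the small subunit) and 32 in other genes. The selection used length and position and no measured value. Loss of Upf1 came with more intron RNA in most ribosomal protein members, whose exons mostly fell. Of the other members, the share that fell lay at the background of all features and the share that rose lay under it. Some of those that fell hold a small nucleolar RNA, whose reads count for the intron. Without pairing of samples, edgeR called none of these introns in the nmd4 deletion, the ebs1 deletion or the libraries labelled as a double deletion of both genes. With same-numbered samples paired, few introns were called, and the intron to exon ratio rose in 6, 33 and 26 members and fell in none. Of all genes tested 3.34%, 15.4% and 10.4% rose.

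Splicing removes introns in the nucleus after the spliceosome has bound the 5′ splice site, the branch point and the 3′ splice site. A pre-mRNA that reaches the cytoplasm unspliced is translated into its intron, usually meets a stop codon there, and is a known class of NMD substrate. Upf1, an RNA helicase whose gene is named NAM7 in the annotation, is the core NMD factor, and Nmd4 and Ebs1 are proteins found with it. Budding yeast has few introns, and the long ones are mostly in the highly transcribed ribosomal protein genes.

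Total RNA of 18 libraries was sequenced after ribosomal RNA removal, 3 libraries in each of 6 groups, from cells in exponential growth in YPD at 30 °C at an optical density of 0.6. The first series held a upf1 deletion and its wild type, both in BY4741 (mating type a). The second held an nmd4 deletion and an ebs1 deletion in BY4741, libraries labelled as an nmd4 ebs1 double deletion in BY4742 (mating type alpha), and a wild type in BY4741. Per the labels, samples with the same number within a series were handled in parallel. Library totals ran between 14243384 and 31452109 counts. Member introns took 0.182% to 0.265% of the counts. YIL177C, YJL225C and YEL076C-A, near chromosome ends in repeated families, had no intron count in any library, and YLR464W had too few for the first table's test, which left 111 members tested.

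NAM7 stood at 8.77 ± 0.371 CPM in the upf1 deletion, against 251 ± 5.18 CPM in its wild type (SD, n = 3 each). NMD4 stood at 2.87 CPM in the nmd4 deletion, against 27.2 CPM in the wild type of the second series, but at 73.6 ± 8.62 CPM where the label gives a deletion of both genes. EBS1 stood at 3.67 CPM in the ebs1 deletion and 4.83 CPM in those libraries, against 142 CPM in wild type. The libraries that kept NMD4 are therefore called the labelled double deletion throughout, and their strain background and genotype cannot be told apart.

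The splice signals of the introns the results turn on are shown first, because they are what the members share beyond length. Sequences were read from the RefSeq copy of the R64 genome, 5′ to 3′ on the gene's strand. The 5′ junctions below hold 8 exon bases and 20 intron bases, with the first 6 intron bases in capitals.
RPL22A, chrXII:263198-263225, plus strand: ccccaaacGTATGAtactttaaaaggaa
RPL35A, chrIV:117659-117686, plus strand: tcgaaatgGTATGTttgagatgaacaaa
HRB1, chrXIV:622937-622964, plus strand: cagaaaacGTATGTttcattgataaggg
DBP2, chrXIV:414904-414931, plus strand: aggtatcgGTATGTtaaaattttctcca
ECM33, chrII:393173-393200, plus strand: tctagctgGTATGTacacattctccttt
BUD25, chrV:184658-184685, minus strand: gatagctgGTCAGTggtaattgagagta
HAC1, chrVI:75832-75859, plus strand: taatccagCCGTGAttacgatgaccagg
GTATGT opened 89 of the 115 introns. GTACGT opened 13 and GTATGA opened 6, among them RPL22A, the intron that rose most of those named. HAC1 encodes the transcription factor of the unfolded protein response, and its intron is cut by Ire1 and not by the spliceosome. It is the only member with neither GT nor GC at its start and without AG at its end.

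The branch point lies in the motif TACTAAC, in capitals below with 10 bases on each side.
RPL22A, chrXII:263524-263550, plus strand: attcgtttttTACTAACattactgttc
RPL35A, chrIV:118094-118120, plus strand: gctaataaaaTACTAACgttaataaaa
DBP2, chrXIV:415855-415881, plus strand: cgaaccaaatTACTAACagtatgcttt
ECM33, chrII:393471-393497, plus strand: cgatcgggaaTACTAACactacttttc
On the gene's strand these letters were found in 106 members (92.2%), against 112 of 151 nuclear introns under 200 bases (74.2%). In 400-base coding windows of genes without introns they were found in 69 of 5119 (1.35%). HRB1 has no exact match in its intron. The introns ended in TAG in 66 members and in CAG in 48, as in these 3′ junctions with the last 3 intron bases in capitals.
RPL22A, chrXII:263575-263602, plus strand: ctttaatttttttgataTAGacttccag
DBP2, chrXIV:415894-415921, plus strand: ttacttctttattttttCAGatgtcaaa

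All 115 introns interrupt the coding sequence, and reading the intron through from the start codon meets an in-frame stop inside every one of them. The stop ended a median of 21 bases into the intron, and within 30 bases in 73 members. The intron began after a median of 16 coding bases in ribosomal protein members and of 181 in the others. Lengths ran between 200 and 1002 bases with a median of 400. The longest is in DBP2, which encodes a DEAD-box RNA helicase.

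Intron density, the intron count per base as a percentage of the same gene's exon count per base, sets intron reads against the whole transcript. It takes in unspliced and excised intron RNA. In 14 members it can also hold reads of features that overlap the intron on the same strand, such as small nucleolar RNAs. Medians were taken over 111 members in each series, without QCR9, YIL177C, YJL225C and YEL076C-A. The median over members was 3.55, 3.66 and 3.43% in the upf1 deletion, against 1.68, 1.49 and 1.58% in its wild type. The groups did not overlap. In ribosomal protein members the median was 2.97 ± 0.0958% in the upf1 deletion, against 1.18 ± 0.0661% in wild type (SD, n = 3 each). In the other members it was 9.82 ± 0.963%, against 11.3 ± 1.38% in wild type. On the log2 scale the upf1 deletion lay 1.16 above wild type over all members. Pooling all intron and all exon counts before dividing gave 0.53, a value weighted to NOG2, HAC1 and RPS22B, which had the most intron counts. Small nucleolar RNA reads made up most of the NOG2 and RPS22B intron counts. Members outside the A and B copies of ribosomal protein genes gave -0.14. The last set is made up of the other genes and RPL25 and RPL39.

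**Figure D1:**
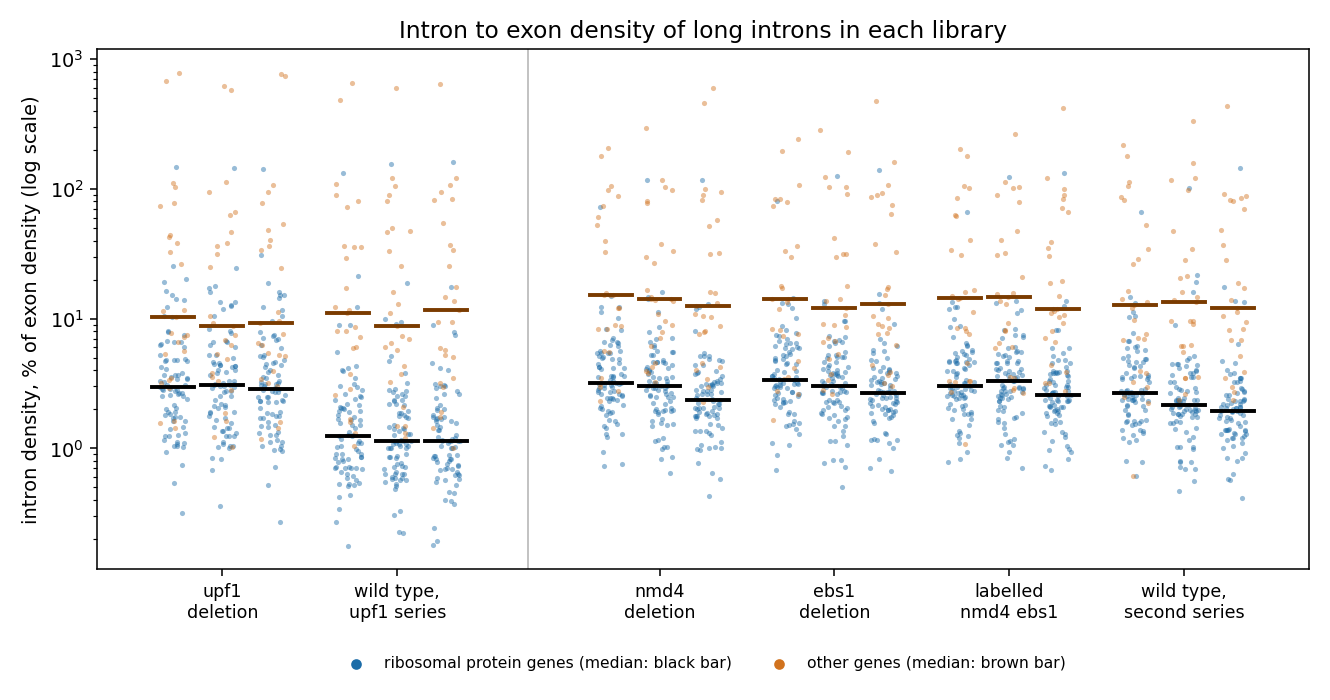
Each point is the intron density of 1 gene (percent of its exon density, log scale) in 1 library, with the 3 libraries of a group side by side, values of 0 not drawn, and bars at the medians of the drawn ribosomal protein genes and of other genes. The ribosomal protein medians of the upf1 deletion lie above those of its wild type (2.89 to 3.08%, against 1.14 to 1.26%, when 0.5 is added to each count, which the drawn points omit), while the second series shows smaller steps and higher wild-type values.

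Wild-type densities spanned a wide range in the first series. At the low end stood introns of abundant ribosomal proteins. The density of RPL31A (large subunit) was 0.178, 0.229 and 0.195%, that of RPS14A (small subunit) 0.272, 0.224 and 0.181%, and RPS0A, RPL19B and RPS27B were the next lowest. At the high end, NOG2 (a nucleolar GTPase of large subunit assembly) had 660, 600 and 643%, RPS22B (small subunit) 133, 156 and 161%, and HAC1 110, 106 and 106%. BUD25 (bud site selection) and YBR219C (of unknown function) were also among the 5 highest. For BUD25 this rested on 8, 2 and 4 intron counts. The YBR219C intron overlaps another gene on the same strand, whose reads count for it too. Reads of a small nucleolar RNA made up 98.3% of the NOG2 intron counts and 95.5% of those of RPS22B in this wild type.

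In the upf1 deletion against its wild type, 70 introns rose and 11 fell of 111 tested (edgeR, adjusted p under 0.05). Of all 9700 features tested, 37.0% rose and 31.8% fell, so that the share of members that fell lies under the background. The median log2 change was 0.65 over members and 0.02 over all features. In ribosomal protein members 65 rose and 2 fell of 83, with a median of 0.84. The large subunit counted 37 of 49 higher and none lower (37 at an unadjusted p under 0.05), and the small subunit 28 higher and 2 lower of 34. In other members 5 rose and 9 fell of 28, with a median of -0.09. The share that fell lies at the background, and the share that rose lies under it. NOG2, EFB1, ASC1 and IMD4, among those that fell, hold a small nucleolar RNA whose reads count for the intron. The share without such genes is not given here. The exons of the ribosomal protein members fell in 80 of 83 genes and rose in none (median -0.47). With scaling on coding exons alone, the all-feature median moved to 0.15 and 67.0% of calls were higher, against 53.8% in the main scaling. Members then counted 77 higher and 10 lower, and 75 of the 83 exons were still lower.

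The largest rise was in RPL22A, which encodes a large subunit protein. Its intron had 480, 693 and 585 counts in the upf1 deletion, against 92, 83 and 124 in wild type. Its density was 3.69, 4.42 and 4.26%, against 0.511, 0.568 and 0.690%. Every mutant library was several times above every wild-type library. The intron changed by 2.36 ± 0.13 on the log2 scale (SE, adjusted p = 3.32e-08), and the exons by -0.44 (adjusted p = 1.42e-05, both edgeR).

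RPL35A and RPL35B are the copies of another large subunit gene, whose intron follows the start codon directly. The RPL35A intron had 397, 485 and 432 counts in the upf1 deletion, against 112, 101 and 124 in wild type (log2 1.77 ± 0.10, adjusted p = 3.45e-08, edgeR). RPL35B had 523, 538 and 540 counts, against 181, 121 and 178 (log2 1.56). The groups were far apart in both copies. RPL21A had 629, 614 and 623 counts, against 189, 130 and 167 in wild type (log2 1.76). RPL37A rose by 1.34 on the log2 scale. RPP1B, which encodes a protein of the acidic ribosomal stalk, had 513, 665 and 490 counts, against 183, 145 and 164 in wild type (log2 1.57). Its densities of 6.68, 6.70 and 7.01% stood against 2.06, 1.86 and 1.74%.

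Among small subunit genes, RPS7B had 386, 455 and 344 intron counts in the upf1 deletion, against 130, 107 and 130 in wild type (adjusted p = 3.24e-07, edgeR). RPS9B had 1589, 1995 and 1774 counts, against 621, 529 and 628 in wild type (log2 1.40 ± 0.05, adjusted p = 2.51e-09, edgeR). RPS24A (log2 1.48), RPS17B (1.45) and RPS30A (1.33) were the other introns of this subunit among the 12 largest rises with a mean of at least 1 CPM and no overlap of the groups. In each of the 3 the groups did not overlap. The 2 introns of this subunit that fell were RPS22B (log2 -0.55) and RPS0B (-0.44, adjusted p = 0.0205, edgeR). RPS0B had 410, 418 and 400 counts in the upf1 deletion and 644, 435 and 390 in wild type, and the groups overlap.

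**Figure D2:**
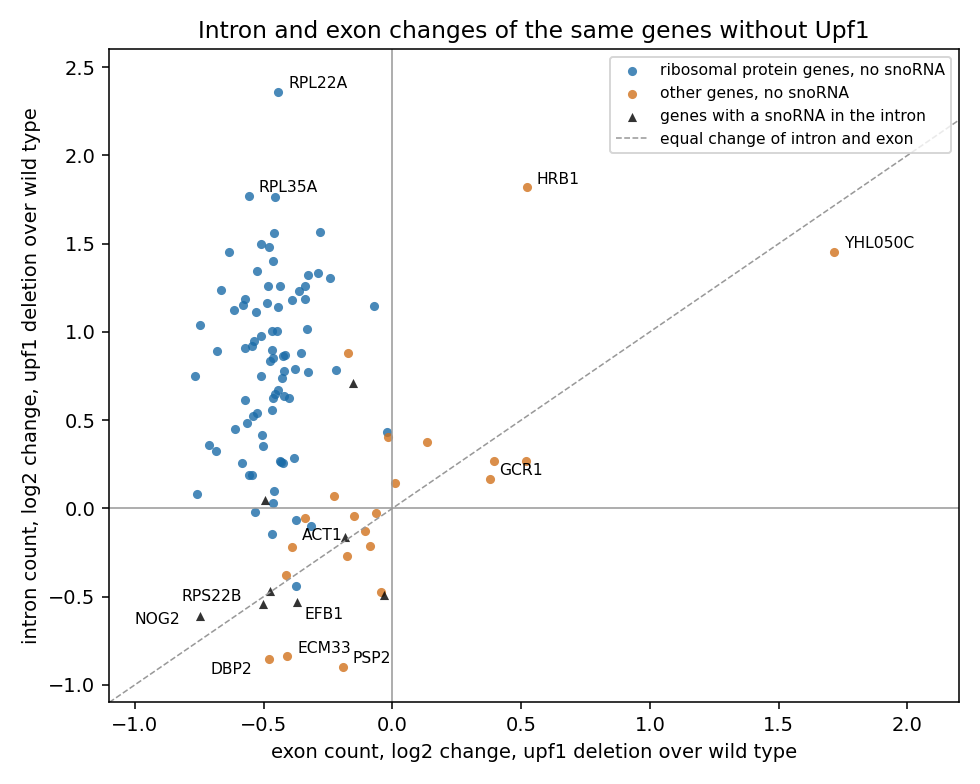
Each point is 1 gene, with the log2 change of its exon count (horizontal) and of its intron count (vertical) in the upf1 deletion over wild type. Ribosomal protein genes form a column left of 0 with introns up to 2.36 higher, and most genes with a small nucleolar RNA in the intron lie near or below the line of equal change.

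Of the 81 ribosomal protein members with a second gene copy, 38 pairs had both introns tested. Both introns rose in 24 pairs, 1 of the 2 in 12 pairs and neither in 2, among them RPL34. Taken singly, 37.0% of all features tested rose. The A copy changed more in 22 pairs and the B copy in 16. The log2 changes of the copies differed by a median of 0.45, and across pairs they were nearly unrelated (Spearman's rho 0.09, n = 38, all from the same 6 libraries). In RPL36 the A copy rose by 1.26 and the B copy had -0.10 (adjusted p = 0.723). RPS18 had the reverse order, with -0.14 in the A copy (adjusted p = 0.272) and 0.62 in the B copy. RPS0A, which encodes a protein of the small subunit, rose by 0.62 (adjusted p = 0.0181), while its copy RPS0B fell. Without replicate 2 the RPS0A value was 0.38 and did not pass the threshold. All p-values here are edgeR's, and a difference between copies was not tested. Reads that align equally well to both copies were not counted, so levels of the copies are uncertain where their sequences are alike.

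**Figure D3:**
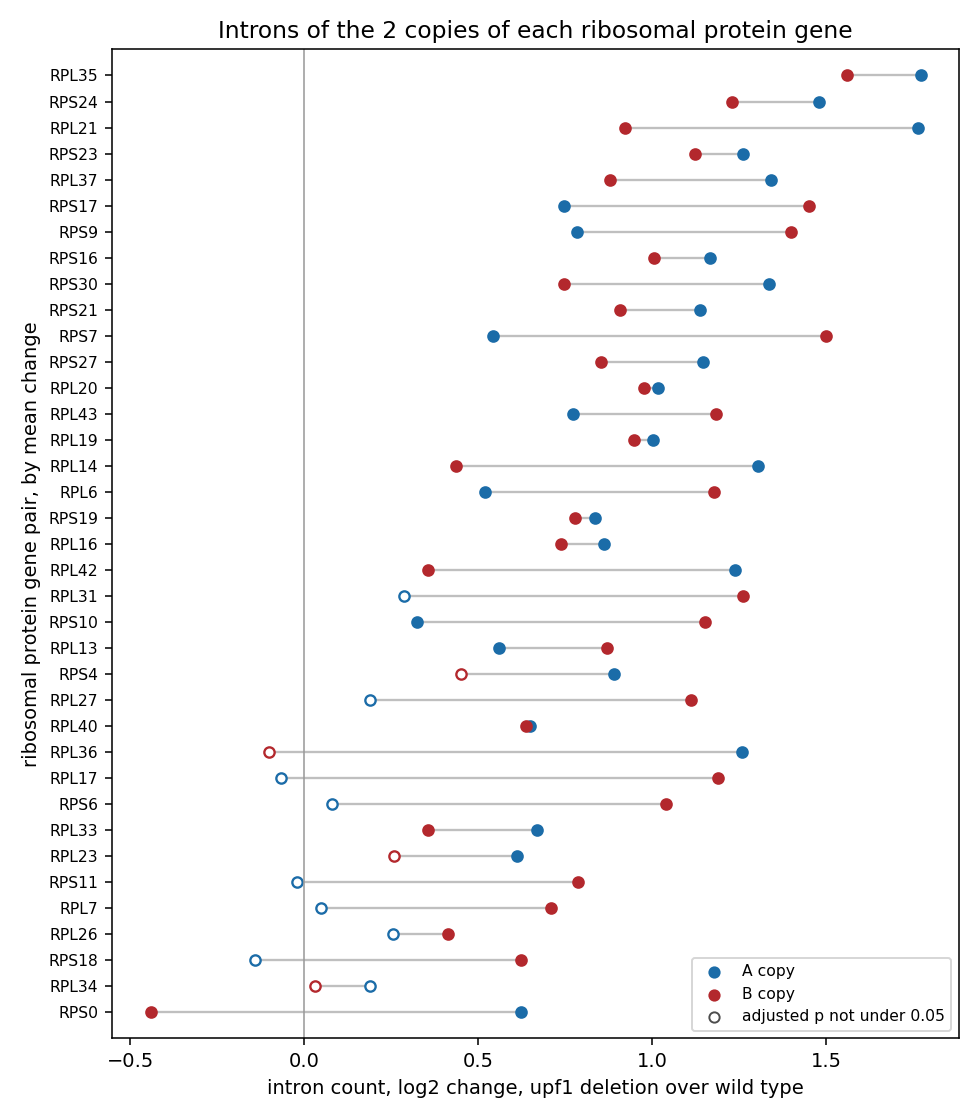
For 37 of the 38 pairs of ribosomal protein genes, points give the log2 change of the A and the B intron in the upf1 deletion over wild type, filled where the adjusted p was under 0.05. Pairs run between RPL35, where both copies are above 1.5, and RPS0, where the copies lie on opposite sides of 0.

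Introns of other genes behaved unevenly. HRB1 encodes a shuttling RNA-binding protein of mRNA export. Its intron had 216, 247 and 190 counts in the upf1 deletion, against 47, 50 and 65 in wild type (log2 1.82 ± 0.15, adjusted p = 1.22e-06, edgeR). Its density of 42.9, 36.2 and 33.8% stood against 12.2, 16.0 and 17.6%. The groups did not overlap, and its exons rose too (log2 0.52). PFY1, which encodes the actin-binding protein profilin, had 108, 147 and 119 counts, against 63, 43 and 72 in wild type (log2 0.88, adjusted p = 0.000328). YBR090C, of unknown function, rose by 0.41, but its intron overlaps other features on the same strand, whose reads count for it too. BUD25 and YHL050C rose by 1.93 and 1.45 from few counts. YHL050C lies near a chromosome end in a repeated family, and its exons rose by 1.71. Its intron to exon ratio changed by -0.27 and was not called. These 5 genes are named because they are all that rose outside the ribosomal proteins.

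ACT1, the actin gene whose intron is a textbook splicing substrate, did not pass the test. Its intron had 132, 151 and 139 counts in the upf1 deletion, against 156, 144 and 130 in wild type (log2 -0.22 ± 0.13, adjusted p = 0.144, edgeR). GCR1, an activator of glycolytic genes with a long intron after its first coding bases, had 838, 907 and 941 counts, against 745, 637 and 721 (log2 0.17 ± 0.07, adjusted p = 0.0544). Densities of GCR1 were 78.1, 63.1 and 77.3%, against 89.4, 81.1 and 82.0%. The GCR1 densities did not overlap, but the change of its intron to exon ratio, -0.21, was not called (adjusted p = 0.154, edgeR). TUB3 (alpha tubulin) had a log2 value of -0.21, and GLC7 (a protein phosphatase) had -0.27. Neither passed the threshold.

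The introns that fell most outside the ribosomal proteins were those of PSP2, DBP2, ECM33 and NOG2. ECM33 encodes a cell wall protein. It had 237, 248 and 230 intron counts in the upf1 deletion, against 433, 324 and 370 in wild type (log2 -0.84 ± 0.10, adjusted p = 1.94e-05, edgeR). DBP2 had 202, 235 and 212 counts, against 305, 291 and 434 (log2 -0.85 ± 0.13, adjusted p = 0.000152). The groups did not overlap in either gene, and the exons of both fell as well, by 0.41 in ECM33 and by 0.48 in DBP2. PSP2 had 22, 13 and 14 counts, against 27, 20 and 34 (log2 -0.90, adjusted p = 0.0177). These counts overlap, the CPM values (at most 0.927 in the upf1 deletion and at least 1.00 in wild type) do not, and the call was lost without replicate 2 (-0.78) and without replicate 3 (-0.65). HAC1 had 8822, 9546 and 8796 counts, against 11550, 8279 and 11397 (log2 -0.38, adjusted p = 0.00067). Its exons fell by 0.41, and its density was the same to within a few percent, with 110, 113 and 108% against 110, 106 and 106%.

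8 members hold a small nucleolar RNA (snoRNA), a guide of ribosomal RNA modification that is released from the excised intron. Reads were assigned to every feature they overlap, so snoRNA reads also count for the intron. Of these 8 introns 1 rose (RPL7B) and 5 fell, with a median of -0.48, where 37.0% of all features rose and 31.8% fell. In NOG2 the snoRNA snR191 made up 98.6% of the intron counts in the upf1 deletion and 98.3% in wild type. In RPS22B, snR44 made up 95.1%, against 95.5%. The NOG2 intron had 8874, 8299 and 8693 counts, against 12606, 9441 and 13003 in wild type (log2 -0.61, adjusted p = 0.000123, edgeR). RPS22B had 4638, 4178 and 4466 counts, against 5942, 4717 and 6548 (log2 -0.55, adjusted p = 0.000513). The counts of both introns are thus almost all snoRNA reads. In EFB1, which encodes a translation elongation factor subunit, snR18 made up 35.1% of the intron counts in the upf1 deletion and 56.0% in wild type. The snR18 feature itself changed by -1.19 on the log2 scale (adjusted p = 0.00111, edgeR). A change of the EFB1 intron without its snoRNA reads was not tested. The value of the whole EFB1 intron was -0.53 (adjusted p = 0.00694, edgeR), with 35.1, 46.8 and 33.2 CPM in the upf1 deletion, against 68.2, 49.2 and 49.0 CPM. Without replicate 1 it was -0.29 and not called. ASC1, which encodes a ribosome-associated scaffold protein, and IMD4, which encodes an enzyme of guanine nucleotide synthesis, fell by 0.47 and 0.49. The snoRNA share was 12.6%, against 15.6% in wild type, in ASC1, and 3.23%, against 2.91%, in IMD4. The IMD4 call was lost without replicate 3 (-0.36).

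Setting each intron against its own exons removes changes of the whole transcript. A model with a term for each library tested whether the intron to exon ratio differed between the groups. In the upf1 deletion the ratio rose in 82 members and fell in 4 of 111. The background of all 275 genes tested was 38.5% higher and 2.55% lower, and most of the genes that rose are members. The ratio rose in 79 of 83 ribosomal protein members (median 1.27). The large subunit counted 48 of 49 and the small subunit 31 of 34. In the 28 other members 3 rose, 4 fell and the median was 0.01. The smallest p-values belonged to RPS9B (log2 1.86 ± 0.08, adjusted p = 1.1e-08), RPL22A (2.80), RPL21A (2.22), RPS24A (1.96), RPL35B (2.03) and RPL35A (2.33). RPL18B, whose intron count was not called, had a ratio change of 0.70 (adjusted p = 0.000852, edgeR). Its density was 16.2, 13.5 and 12.3%, against 8.87, 9.10 and 7.89% in wild type, with no overlap. RPS9A, the copy of RPS9B, had 20.3, 17.1 and 15.2%, against 8.93, 9.89 and 7.46% (log2 ratio 1.00, called). RPL25 and RPL39, the ribosomal protein members with a single gene copy, had ratios of 0.71 and 1.05, both higher.

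The 4 ratios that fell were small. MPT5 encodes a Puf-family RNA-binding protein. Its density was 26.2, 24.9 and 24.8% in the upf1 deletion, against 35.8, 32.9 and 33.8% in wild type (log2 -0.44, adjusted p = 0.00671, edgeR). Its exon feature is shorter than its coding sequence, so the level, unlike the change, depends on the annotation. Its intron also overlaps another gene on the same strand. IMD4 (-0.46), ECM33 (-0.44) and DBP2 (-0.37, adjusted p = 0.0489) complete the list. Leaving out replicate 2 ended the calls of MPT5 (-0.45), ECM33 (-0.41) and DBP2 (-0.38). Leaving out replicate 3 ended those of IMD4 (-0.38), ECM33 (-0.52) and DBP2 (-0.21). With either replicate left out 1 gene was still called lower.

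**Figure D4:**
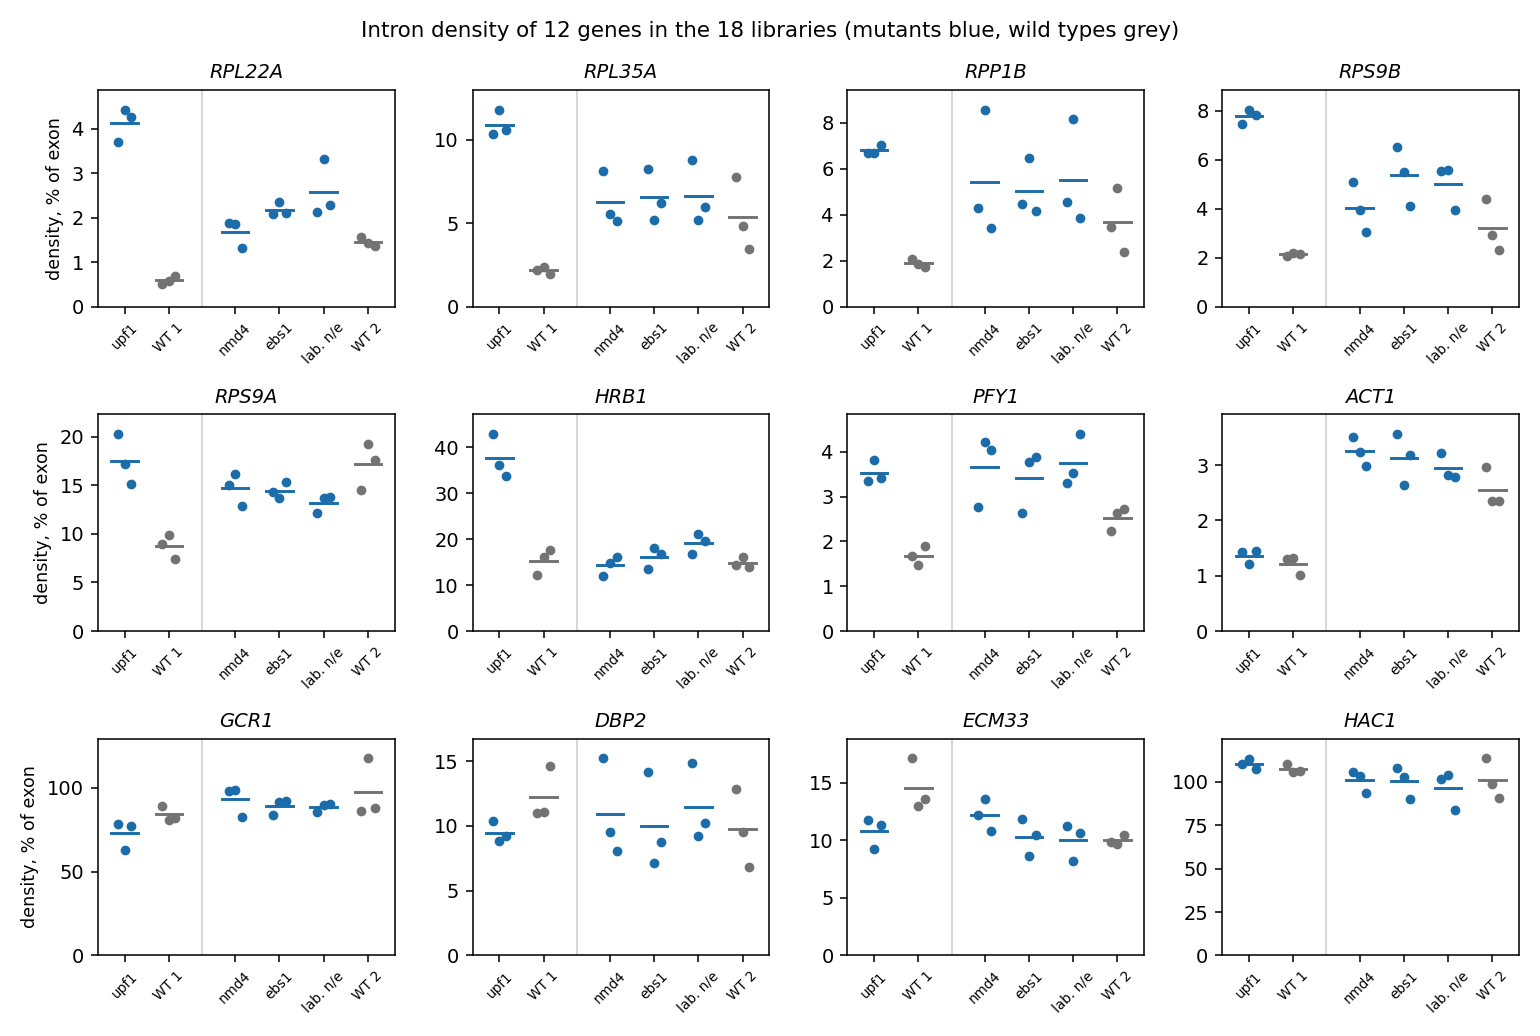
Intron density (percent of exon density) of 12 genes in all libraries, with bars at the group means and the first series left of the line. RPL22A, RPL35A, RPP1B, RPS9B and HRB1 separate the upf1 deletion from its wild type by a wide gap, whereas the groups overlap or nearly meet in ACT1 and HAC1 and the upf1 deletion has the smaller densities in GCR1, DBP2 and ECM33.

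The size of the ratio change in the upf1 deletion was set against properties of the introns, as a description over genes that share the same 6 libraries. Spearman's rho with the number of coding bases before the intron was -0.46 (n = 111), and -0.36 within the ribosomal protein members (n = 83). With intron length it was -0.01 and -0.24. With wild-type density it was -0.44 over all members and -0.07 within the ribosomal proteins. That density also enters the ratio change, from the same wild-type libraries, so a negative value is partly built in. With the distance of the in-frame stop from the intron start, rho was -0.22 and -0.11. Among the ribosomal proteins, introns opening with GTATGT rose in 48 of 63 and introns with other first bases in 17 of 20, with medians of 0.85 and 0.81. These calls are of intron counts, where 37.0% of all features tested rose.

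Nuclear introns under 200 bases were tested in the same fits. Of 57 tested in the upf1 deletion, 21 rose and 2 fell (median 0.20), where 37.0% of all features rose and 31.8% fell (median 0.02). The share of short introns that rose lies at the background, and the share that fell lies under it. Their intron to exon ratio rose in 19 of 125 genes tested and fell in 2 (median 0.29), where 38.5% of all genes tested rose and 2.55% fell. Of the 106 genes behind that 38.5%, 82 are the long members, so it is no neutral background for the short introns. The difference between the length classes was not tested. At the length threshold, the members just inside were SEC27 (200 bases), PFY1 (209) and YOS1 (213). Their introns averaged 23, 125 and 18 counts in the upf1 deletion, against 20.7, 59.3 and 16.3 in wild type. Just outside were COI1 (194 bases), COF1 (179) and DYN2 (176), with 36.3, 79 and 19.3 counts, against 31, 41.3 and 16.

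In the second series the median density of the members was 4.06, 3.87 and 3.05% in the nmd4 deletion and 4.04, 3.74 and 3.25% in the ebs1 deletion. It was 3.78, 3.79 and 3.22% in the labelled double deletion, against 3.45, 2.68 and 2.33% in wild type. Replicate 3 was the lowest library of all 4 groups. Each mutant library lay above the same-numbered wild-type library, and each mutant group overlapped the wild type. The differences on the log2 scale were 0.39, 0.40 and 0.37, and 0.21, 0.25 and 0.23 with all counts pooled before dividing. The pooled values are again weighted to NOG2, HAC1 and RPS22B. The 3 comparisons share the same wild-type libraries. The second wild type also had a higher median (2.82 ± 0.572%) than the first (1.59 ± 0.0974%, SD, n = 3 each), a level set across tables made separately and not tested.

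No member intron was called in any of the 3 comparisons by edgeR. At an unadjusted p under 0.05 there were 9 for nmd4, 9 for ebs1 and 12 for the labelled double deletion. The share of all features at that unadjusted threshold is not given here, so these counts cannot be read as an excess. DESeq2 called none, 1 lower and 1 lower. Of all 10148 features tested, 0.0394% rose and 0.00985% fell in the nmd4 deletion at the adjusted threshold of edgeR, 0.0493% in all. In the ebs1 deletion 0.355% rose and 0.00985% fell, 0.365% in all. In the labelled double deletion 2.01% rose and 0.384% fell, 2.39% in all. Median log2 changes of the members were 0.14, 0.12 and 0.11, against -0.0035, 0.00059 and -0.0092 over all features.

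With the replicate number as a block, the nmd4 deletion still had no member called by edgeR, where 0.0887% of all features rose and 0.00985% fell (0.0985% in all). In the ebs1 deletion 1 member rose and 2 fell, where 3.22% of features rose and 2.4% fell (5.63% in all). In the labelled double deletion 4 rose and 2 fell, where 5.17% rose and 3.63% fell (8.8% in all). RPS9B rose by 0.42 in both (adjusted p = 0.0255 for ebs1 and 0.0153 for the labelled double deletion, edgeR with the block). RPS30A, RPS17B and RPL22A were the other introns that rose in the labelled double deletion. RPL18B and NOG2 fell in both. RPL18B had 309, 312 and 316 counts in the ebs1 deletion and 280, 301 and 430 for the labelled double deletion, against 277, 322 and 541 in wild type. Its wild-type density of 13.2, 21.9 and 13.4% stood highest in replicate 2. In NOG2 snR191 made up 96.1% of the intron counts for ebs1 and 95.7% for the labelled double deletion, against 96.4% in wild type.

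The intron to exon ratio likewise had no member called in the 3 comparisons by edgeR or limma, where edgeR called 0.0% of the 299 genes tested after adjustment. At an unadjusted p under 0.05 edgeR had 7, 20 and 20 members, and the share of all genes at that threshold is not given here. Median ratio changes were 0.28 for nmd4, 0.34 for ebs1 and 0.32 for the labelled double deletion. Over all genes tested they were 0.27, 0.26 and 0.28, close to the members. The ratio was above the same-numbered wild type in all 3 pairs for 65, 69 and 60 of the 111 members, against 89 in the upf1 deletion. The same count over all genes tested is not given, so it cannot be read as particular to the members. With the replicate block 6, 33 and 26 member ratios rose and none fell (edgeR). Of all genes tested 3.34% rose and 0.0% fell in the nmd4 deletion, 15.4% and 0.334% in the ebs1 deletion (15.7% in all) and 10.4% and 0.0% in the labelled double deletion. The member ratios that rose lie in ribosomal protein genes except PFY1 in the labelled double deletion.

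RPS9B shows the pairing. Its density was 5.09, 3.93 and 3.05% in the nmd4 deletion and 6.53, 5.50 and 4.09% in the ebs1 deletion. It was 5.54, 5.59 and 3.94% in the labelled double deletion, against 4.40, 2.94 and 2.30% in wild type. The groups overlap, yet each mutant library is above its same-numbered wild type. With the block the ratio rose by 0.77 ± 0.12 for ebs1 (SE, adjusted p = 0.00151) and by 0.68 ± 0.12 for the labelled double deletion (adjusted p = 0.00484, edgeR). In the nmd4 deletion it was 0.34 (adjusted p = 0.106). RPL43B and RPS27B, of the large and the small subunit, had the smallest adjusted p in the nmd4 deletion with the block (0.0207 for both), with 0.61 and 0.64. RPL22A, which led in the upf1 deletion, rose by 0.80 in the labelled double deletion and by 0.58 for ebs1 with the block. In the nmd4 deletion it had 0.19, which was not called.

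**Figure D5:**
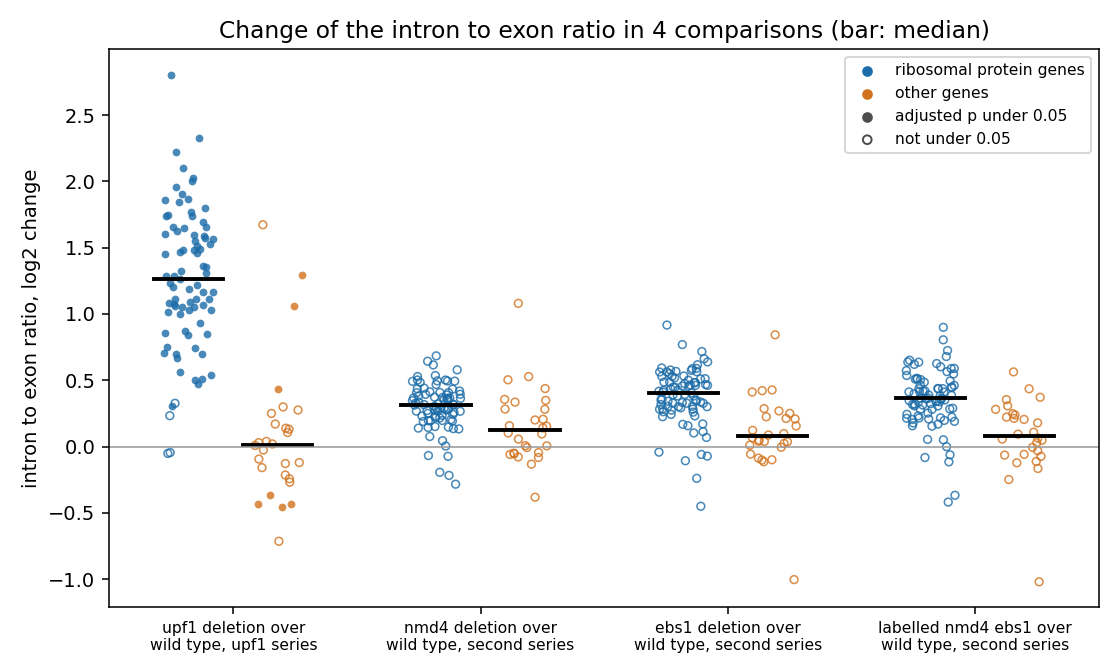
Each point is the log2 change of the intron to exon ratio of 1 gene in 1 of 4 comparisons without the replicate block, filled where the adjusted p was under 0.05, with bars at the medians. Ribosomal protein genes centre at 1.27 in the upf1 deletion and between 0.31 and 0.40 in the other 3 comparisons, where no point is filled.

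Whether the upf1 effect differed from the others was tested in 1 fit of all 18 libraries, as the upf1 change minus the other change, each within its own series. The labels give the series different experimenters, and the effect of that cannot be told apart from the series. Of 112 member introns tested, 42 differed from the nmd4 effect, where 26.2% of all 10381 features differed. From the ebs1 effect 39 differed (background 19.8%), and from that of the labelled double deletion 40 (background 18.8%). Most of these were larger in the upf1 deletion, namely 39, 38 and 39, and 37 in each comparison were in ribosomal protein genes. With the replicate block the counts were 69, 61 and 64, against backgrounds of 41.1%, 33.6% and 32.5%. Leaving out a replicate gave as few as 25 without replicate 1 for nmd4, 17 without replicate 2 for ebs1 and 15 without replicate 1 for the labelled double deletion. RPL35A differed in all 3, by 1.74, 1.74 and 1.68. In the other direction stood ECM33, whose upf1 change lay 0.89, 0.62 and 0.60 under the other 3. GLC7 and HAC1 were lower against nmd4 alone (-0.58 and -0.36).

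Genes of the splicing machinery were read from lists chosen with earlier results known. The median log2 changes of these lists ran between -0.23 and 0.19, against 0.02 over all features. In the upf1 deletion 13 of 27 genes of the U2 and tri-snRNP proteins rose and 6 fell, where 37.0% of all features rose and 31.8% fell. Of the spliceosomal helicases and the Prp19 complex 11 of 24 rose and 8 fell. U1 and branch point recognition had 2 higher and 6 lower of 12, and nuclear retention of pre-mRNA with the RES complex 2 and 4 of 8. Intron turnover had 2 and 5 of 9. With scaling on coding exons alone these counts were 16 and 4, 14 and 5, 4 and 4, 3 and 4, and 3 and 4. The clearest rises were AAR2 (assembly of the U5 particle, log2 1.55), PRP5 (the helicase of branch point pairing, 1.22), BUD31 (1.46), PML39 (pre-mRNA retention at the nuclear pore, 1.21) and PML1 (of the RES complex, 1.10). DBR1, the enzyme that opens the lariat of excised introns, rose by 0.76, and RAT1 and XRN1, the 5′ to 3′ exonucleases, fell by 0.45 and 0.44. None of the listed genes was called in the nmd4 or ebs1 deletion by edgeR, and 2 rose in the labelled double deletion. With the replicate block 4 rose and 1 fell in the ebs1 deletion, and 4 rose and 1 fell in the labelled double deletion.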

How the data were processed

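Read counts per feature in 2 tables were made by the authors, 1 for each series, with featureCounts (Subread 1.5.0-p3) per the file headers, and after alignment with STAR 2.4.2a to build R64 per the submitters' processing notes. The headers give counting on the sense strand. A read that overlaps several features counts for each of them, and reads that align in several places are not counted. The deposited counts carry no scaling. Library totals limit the precision, and PCR reads without molecular identifiers are not independent molecules.

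Features kept by filterByExpr were scaled with TMM and tested 2-sided by quasi-likelihood in edgeR 4.0.16 (R 4.3.3). P-values were adjusted by Benjamini-Hochberg over each whole table, with a threshold of 0.05. Ratios of intron to exon counts were tested in edgeR as an interaction, over genes with at least 10 intron counts and at least 10 exon counts in the table. Medians over members add 0.5 to each count, and densities of single genes add nothing. DESeq2 1.42.0, limma 3.58.1 on log2 ratios, other scalings, no filter and single replicates left out were the alternatives. Plots were drawn with matplotlib 3.10.9 from tables made with numpy 2.4.6, pandas 2.3.3 and scipy 1.17.1 under Python 3.11.15. The fits were tested on simulated data. Intron positions lie inside the R64 reference chromosomes, and their ends read as splice sites there except in HAC1.

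The labels tie same-numbered samples to parallel handling, so the numbers pair the samples. Same-numbered samples correlated by 0.04 to 0.23 in the first series and by -0.01 to 0.65 in the second (deviations from group means). The labels do not say that samples of a group were separate cultures, so p-values measure the spread between these samples.

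Named genes are, for each comparison, 12 rises and 6 falls, taken by size among called introns that reach 1 CPM on average and whose groups do not overlap in CPM, the 6 smallest p in each direction for ratios, the 4 smallest p for differences, the 5 highest and lowest densities, the 3 introns on each side of the length threshold, and a fixed group that includes ACT1. The members, lists and rules were chosen with earlier results of these data known. Other genes named were chosen after their values were seen. QCR9 has an exon feature of negative length and no density, and the exon features of RPL7A and MPT5 are shorter than their coding sequences. The values of 1 member are not reported here.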

Additional observations from a re-analysis of the deposited data

Results flagged for a closer look

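The effect of the upf1 deletion on long introns differed from the effects in the second series by a test of the difference itself, in edgeR over all 18 libraries. 42 introns differed from the nmd4 effect, 39 from the ebs1 effect and 40 from that of the labelled double deletion, where 26.2%, 19.8% and 18.8% of all features differed. With a replicate left out the counts were as few as 25, 17 and 15. The RPL35A intron differed by 1.74 on the log2 scale from nmd4 (adjusted p = 1.12e-06), by 1.74 from ebs1 (adjusted p = 1.73e-06) and by 1.68 from the labelled double deletion (adjusted p = 2.51e-06). Its density was 10.4, 11.8 and 10.6% in the upf1 deletion, against 2.21, 2.35 and 1.97% in wild type. RPL22A differed by 2.31 from nmd4 and by 2.04 from ebs1. HRB1 differed by 1.84 from nmd4. RPL37A differed by 1.26 from nmd4 and by 1.07 from the labelled double deletion. RPL42A differed by 1.10 from ebs1 and by 1.12 from the labelled double deletion. RPL20B differed by 0.89 from ebs1 and by 0.82 from the labelled double deletion. The 2 series were counted in separate tables, and the 3 comparisons share both wild types.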

How the results depend on the processing

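The main counts of the upf1 deletion kept within 1.5 times under every alternative run except the lower ratios, 4 in the main fit, of which limma called 1 and single replicates left out 1 to 5. The upf1 difference of median density was 1.16, against 0.53 with summed counts, which are weighted to NOG2, HAC1 and RPS22B. It was -0.14 in members outside the A and B copies of ribosomal protein genes, a set that includes RPL25 and RPL39. That set gave 0.13 for nmd4 and 0.044 for ebs1. The replicate block gave 6, 33 and 26 higher ratios for nmd4, ebs1 and the labelled double deletion, against 0 in each without it, where 3.34%, 15.4% and 10.4% of all genes tested rose. It gave 1 and 4 higher introns for ebs1 and the labelled double deletion, where 3.22% and 5.17% of all features rose, and 2 lower in each, where 2.4% and 3.63% fell. DESeq2 gave 1 lower in each of these 2 groups. Introns whose upf1 effect differed numbered 69, 61 and 64 with the block (nmd4, ebs1, labelled double deletion), and 25 to 30, 17 to 29 and 15 to 29 with a replicate left out. The cause was not tested, beyond the fewer samples of the last. Of 76 results of single genes, 64 kept their call in every alternative, 8 lost it in at least 1, 4 gained one and none reversed. Among those that gained one were the RPL18B intron with coding scaling and the BUD25 and PSP2 ratios. Members with few counts, such as BUD25 and YOS1, are limited by depth.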
